A study of Mus musculus with 25 samples.

Results

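The genes described here were 10 immediate early genes measured in the CA1 region of the hippocampus: Fos, Fosb, Junb, Jund, Egr1, Egr2, Egr3, Egr4, Arc and Nr4a1. They were represented by 13 of the 45101 probe sets of the Affymetrix Mouse 430_2.0 array, namely every probe set that the platform's annotation assigned to 1 of these genes and to no other gene. Egr2, Egr3 and Jund had 2 probe sets each, called the brighter and the dimmer one here by their mean signal, and the other 7 genes had 1 each. The mice were females of the inbred strain Balb c/J, 11 of them handled and 14 non-handled, with 1 array per mouse. In handled litters, dams and pups spent 15 min apart in fresh cages every morning during postnatal days 1 to 14, and non-handled litters were left undisturbed. Testing in the open field, followed by the light-dark box, began at about 8 weeks of age, and 2 weeks after that testing CA1 was microdissected from the adult brain. RNA was purified on RNA/DNA columns for 7 handled mice against 10 non-handled mice, called column mice here, and with Trizol for 4 handled mice against 4 non-handled mice, called Trizol mice. The extraction method was read from positions in the list of samples, and the sizes of the resulting groups match those of the series design. Handling was applied to whole litters and mice of a group shared litters, but which mice were littermates is not given in the sources used here, nor are the order of dissection and the time of day. Every handled mouse also carried a lower mouse number than every non-handled mouse, so anything that followed the numbering cannot be told apart from handling. All p-values and permutations treat mice as independent, so littermates were counted as separate animals.

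Immediate early genes are switched on within minutes of strong synaptic activity, without new protein synthesis, when calcium entry activates CREB and the serum response factor at their promoters. Most encode transcription factors. Fos, Fosb, Junb and Jund encode subunits of AP-1, a dimer of a Fos and a Jun protein. Egr1, Egr2, Egr3 and Egr4 encode zinc finger factors, Nr4a1 encodes an orphan nuclear receptor, and Arc encodes a synaptic protein that drives internalization of AMPA receptors. In the hippocampus their transcripts are widely used as a readout of recent neuronal activity. Jund is the member of the group that is known for steady expression in many resting cells.

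Expression was read as signal, the linear intensity that the MAS 5.0 algorithm gives each probe set, and was compared after log2 transformation. Signals of different probe sets are not comparable as levels, since each has its own probes. The tissue is a mixture of cells, so that fewer cells of a type and less RNA per cell cannot be told apart. All 13 probe sets gave a value in all 25 mice, none was at the ceiling of the scale, and 12 of 13 lay in the upper 50% of mean signal over all probe sets. The exception was the dimmer Jund probe set, at the 38.5th percentile. Egr4 (59.8th) and the dimmer Egr3 probe set (61.0th) were the next lowest. No member was removed by a filter. On build GRCm38.p6, Fos lies at chr12:85473890-85477274, Arc at chr15:74669081-74672570, Egr4 at chr6:85511121-85513589, Jund at chr8:70697739-70700616 and Egr3 at chr14:70077317-70082613. The sources used here do not place the probes within these genes.

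Fos, Junb, Egr1, Egr2, Nr4a1 and Arc varied together from mouse to mouse, within handled and within non-handled mice. For each of them the SD of log2 signal between mice of the same subgroup was larger than the handled minus non-handled difference over all mice. Fos, the founding member of AP-1, is described first. In handled column mice its signal was 351, 384, 386 and 434 in mice H109, H123, H116 and H110, and 1585, 1841 and 2204 in mice H117, H118 and H108. In non-handled column mice Fos signal ran from 368 through a median of 677 to 1468. It was 270.2, 671, 778 and 1189 in handled Trizol mice, against 846, 874, 1405 and 1493 in non-handled Trizol mice. The handled column mice thus included both the lowest and the highest Fos values among column mice, with no handled column mouse between 434 and 1585, and handled and non-handled mice overlapped under both extraction methods.

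Arc followed the same mice. Its signal in handled column mice was 169, 181, 208 and 265 in mice H116, H123, H110 and H109, and 632, 1294 and 1569.9 in mice H117, H118 and H108. In non-handled column mice Arc ranged from 133 through a median of 383 to 962. In handled Trizol mice it was 100.7 in H126, 399.5 in H113, 414 in H130 and 452 in H131, against 236, 434, 519 and 724 in non-handled Trizol mice. The same 3 handled column mice were highest for both genes, and the handled Trizol mouse that was lowest for Fos was lowest for Arc as well. Nr4a1 separated the handled column mice in the same way, with 664, 697, 721 and 819 in H116, H109, H123 and H110 and 2017, 2225 and 2235 in H117, H108 and H118, while the non-handled column mice spanned 653 to 2282.

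**Figure D1:**
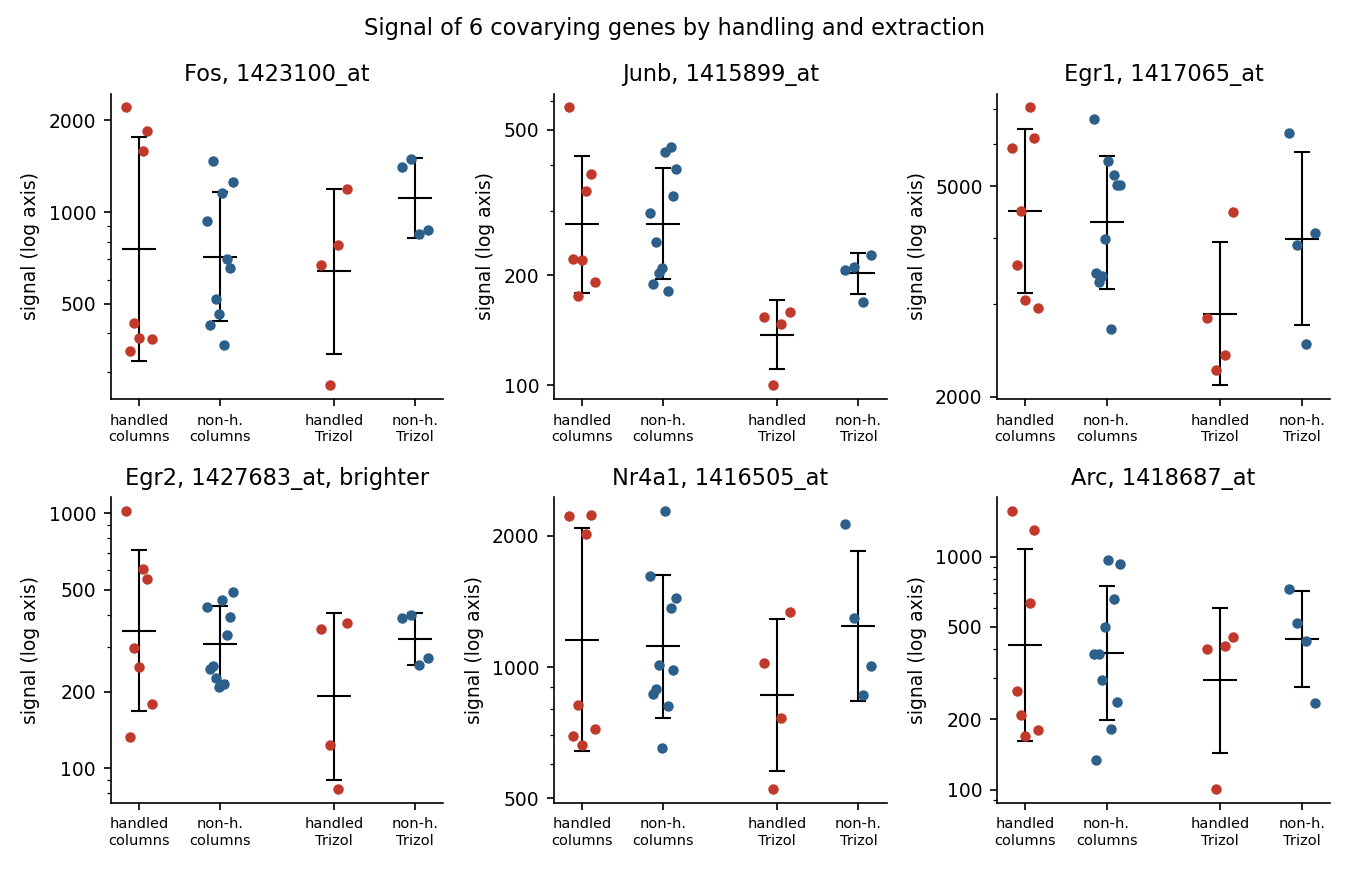
Signal on a log axis for the 6 covarying genes, 1 point per mouse, by handling and extraction method; horizontal bars and error bars are the mean and SD of log signal. Handled and non-handled mice overlapped in every panel apart from Junb in Trizol mice, and Fos in handled column mice lay at 434 or below or at 1585 or above.

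Covariation was measured after the mean of each of the 4 subgroups (handling by extraction) had been taken out, so that differences between groups cannot produce it, with the brightest probe set of each gene. Among the 6 genes the 15 pairs had Pearson correlations from r = 0.661 for Arc and Egr1 to r = 0.860 for Fos and Arc, with a median of 0.799 over the 25 mice. Spearman's rho ran from 0.662 to 0.859. Without the 2 mice farthest from the median of the first gene of each pair, r ran from 0.576 to 0.857. The permutation p of Fos and Arc was 4e-05 for r and 7e-05 for rho, and that of Nr4a1 and Egr1 was 1e-05 for r, the smallest that 100000 reassignments of mice within subgroup can give. In all, 45 pairs of the 10 genes were computed.

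The covariation was present under each extraction method and in each group. Within column mice r among the 15 pairs ran from 0.731 to 0.885. Within Trizol mice, with 8 mice, it ran from 0.440 to 0.903. In handled mice the range was 0.708 to 0.977, with Fos and Nr4a1 highest, and in non-handled mice it was 0.522 to 0.831. Whether the correlations were higher in handled than in non-handled mice was not tested. With each mouse left out in turn, the median over the 15 pairs stayed between 0.774 and 0.828 and the lowest single pair was 0.597.

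Fosb, Jund, Egr3 and Egr4 stood outside this pattern. Their 24 pairs with the 6 genes had a median r of 0.124, from -0.098 for Arc and Egr3 to 0.618 for Egr2 and Egr4. Egr4 came closest, with r = 0.539 to Nr4a1 and 0.418 to Egr1. Among themselves the 4 genes gave r between -0.465 for Fosb and Jund and 0.470 for Fosb and Egr4, and without the 2 farthest mice, H130 and NH162, these 2 values were -0.267 and 0.216. The division into 6 and 4 genes was made after the correlations were seen, so the contrast between these medians is a description. With the 3' to 5' ratios of Gapdh and Actb as covariates, Jund came nearer, with r = 0.461 to Nr4a1. Egr4 then had r = 0.320 to Nr4a1. Without these covariates, leaving out NH162 alone gave r = 0.265 for Jund and Nr4a1.

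**Figure D2:**
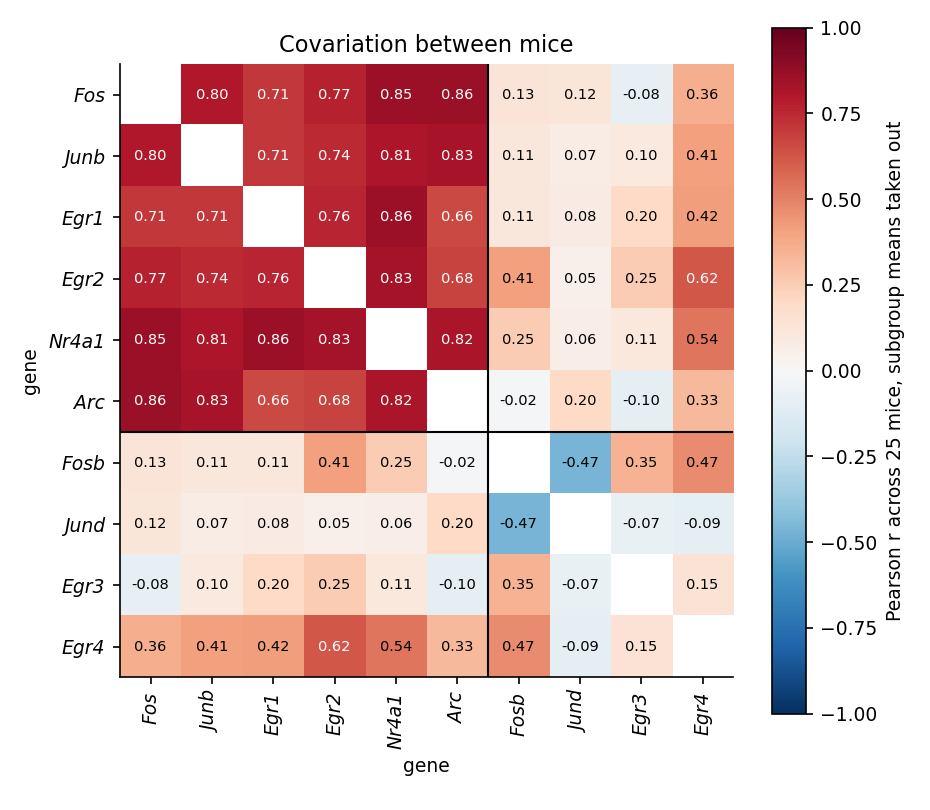
Pearson r for each pair of the 10 genes across 25 mice, with subgroup means taken out (colour scale from -1 to 1, same gene left blank). The upper left block of 6 genes holds r from 0.661 to 0.860, and pairs of these genes with Fosb, Jund, Egr3 and Egr4 have a median of 0.124.

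Individual mice carried the pattern across all 6 genes. The deviation from the subgroup mean was positive for all 6 genes in 7 mice and for none in 8 mice. H108 stood highest, with Fos 1.54, Arc 1.91, Egr2 1.56 and Junb 1.06 above its subgroup mean on the log2 scale. H118 and H117 followed with a median over the 6 genes of 0.81 and 0.73, and H123, with a median of -0.81, was lowest. Among the non-handled column mice NH163 and NH170 were above the mean for all 6 genes, and NH155, NH157 and NH165 were below it for all 6. Single exceptions occurred, such as NH156, in which Fos lay 1.04 above the subgroup mean and the other 5 genes between -0.37 and -0.01.

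**Figure D3:**
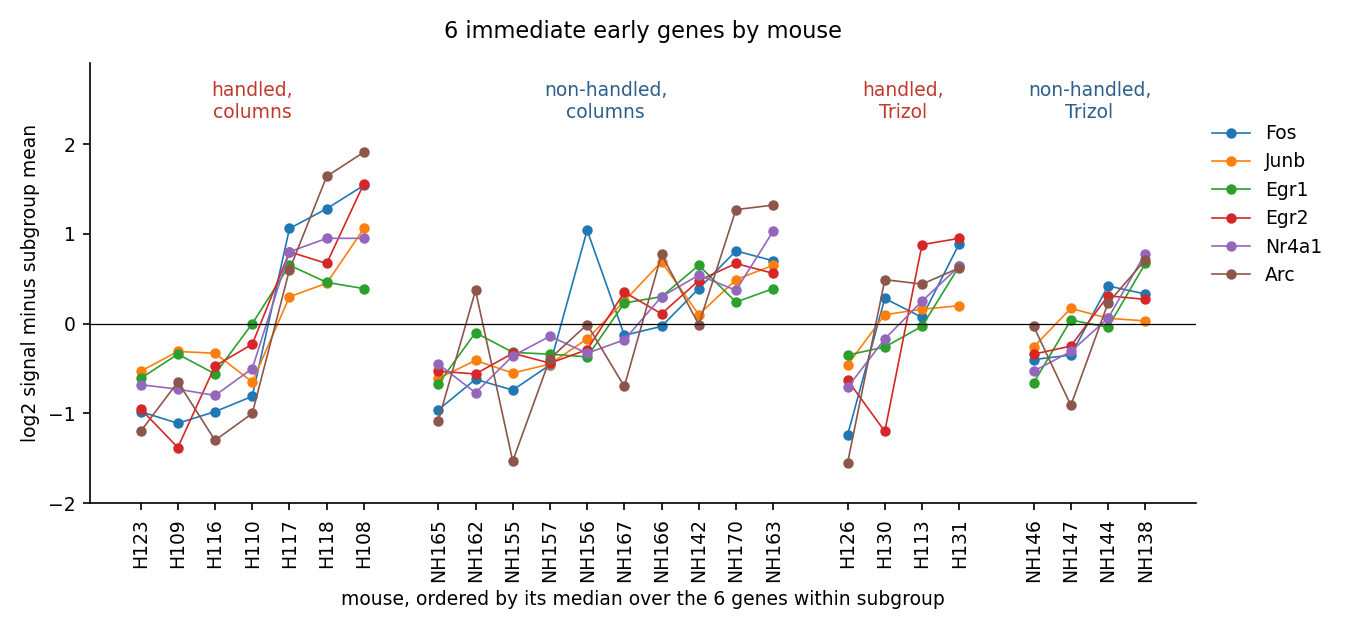
Deviation of log2 signal from the subgroup mean for 6 genes in each mouse, with mice ordered by their median within handled and non-handled mice of each extraction method. Lines for different genes run together, from about the same mice below 0 to the same mice above 0, with H108 highest and H123 lowest by median.

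With the signal of 1 member as a covariate in a limma fit of every other probe set, few of 45036 probe sets passed with a positive slope: 6 with Fos (0.0133%), 4 with Arc (0.00888%), 12 with Nr4a1 (0.0266%), 2 with Egr1 (0.00444%), 4 with Egr2 (0.00888%) and 6 with Junb (0.0133%). Members made up 3 of 6 for Fos, 3 of 4 for Arc, 5 of 12 for Nr4a1, 2 of 2 for Egr1, 3 of 4 for Egr2 and 4 of 6 for Junb when 1 probe set per gene was counted. The dimmer Egr2 probe set, left out of these member counts, also passed with Fos (adjusted p = 0.0319) and with Nr4a1 (adjusted p = 0.00307). The adjusted p, over all probe sets, was 3.59e-05 for Fos with Arc as the covariate and 0.000104 for Nr4a1 with Egr1 as the covariate. Of the 90 ordered pairs of members, 20 passed, all within the 6 genes. No probe set passed with Fosb, Egr3 or Egr4 (0.00%), though within column mice alone 631 passed with a positive slope on Fosb (1.40%) and 696 with a negative one, none of them a member. With Jund, 335 probe sets passed with a positive slope (0.744%) and 606 with a negative one (1.35%), none of them a member. With the 3' to 5' ratios of Gapdh and Actb as covariates, 0 passed in either direction for Jund and 0 for Egr2, and the positive calls numbered 3 for Fos, 3 for Nr4a1, 5 for Junb, 4 for Arc and 1 for Egr1. After quantile normalization they numbered 3 for Fos, 2 for Arc, 7 for Nr4a1, 7 for Junb, 4 for Egr2 and 1 for Egr1.

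Of the genes outside the 10 that were most like the 6, Dusp1, Errfi1 and Klf10 are on the list of other early induced genes, and the rest are not. Among the rest, Lpin2, Slc7a1, Fastkd5, Rpl7l1, Kif1b and Cyb5r3 did not pass (adjusted p from 0.108 to 0.743). Dusp1, a phosphatase that switches off MAP kinases, had r = 0.860 with Fos (adjusted p = 0.000112), 0.795 with Junb and 0.769 with Arc. Errfi1, a feedback inhibitor of EGF receptor signaling, had r = 0.787 with Nr4a1 (adjusted p = 0.0212), 0.789 with Egr2 and 0.774 with Egr1, the last at adjusted p = 0.0849. Tnfaip3, an inhibitor of NF-kappa-B signaling, had the highest r with Nr4a1, 0.796, which did not pass (adjusted p = 0.122). Klf10, a zinc finger factor induced by TGF-beta, had r = 0.756 with Nr4a1 (adjusted p = 0.0406), and Clk1, a kinase of splicing factors, r = 0.745 with Fos (adjusted p = 0.0319). Rsrp1 had r = 0.785 with Junb (adjusted p = 0.00296). For Fosb, Egr3 and Egr4 the most similar genes were Ergic1, Camk1d and Usp8, with adjusted p of 0.130, 0.325 and 0.910, and none passed. For Jund they were Lsm1 (r = 0.820), Irak1bp1 (r = 0.803) and Cish (r = 0.785).

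The 250 bases before the annotated start were available for 7 of the 10 genes from the RefSeq promoter table, on build GRCm38.p6. They are shown for the covarying genes Fos (chr12:85473640-85473889, plus strand), Junb (chr8:84978749-84978998, minus strand), Nr4a1 (chr15:101266596-101266845, plus strand) and Egr2 (chr10:67537619-67537868, plus strand), and for Egr4 (chr6:85513590-85513839, minus strand) and Jund (chr8:70697489-70697738, plus strand), which passed the test of handling given after them. Each reads 5' to 3' on the strand of the gene. Capitals mark TGACG or its reverse complement CGTCA, the core of the cAMP response element that CREB binds, the CArG box of the serum response factor (in Egr2 alone), and the TATA box TATAAA (in Fos alone). Both strands were searched, and the palindrome TGACGTCA holds the core on each strand. Sites farther upstream than these 250 bases were not searched, so a motif missing here may still lie there. For Egr2, which has 5 annotated starts, the window with the most matches was taken; 3 of its 5 windows hold the core and 4 of 5 a CArG box.
Fos: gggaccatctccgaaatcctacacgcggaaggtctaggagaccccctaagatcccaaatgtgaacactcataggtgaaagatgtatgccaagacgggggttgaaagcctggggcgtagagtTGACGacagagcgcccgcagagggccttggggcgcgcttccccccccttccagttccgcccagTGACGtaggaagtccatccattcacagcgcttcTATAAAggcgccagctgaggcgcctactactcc
Junb: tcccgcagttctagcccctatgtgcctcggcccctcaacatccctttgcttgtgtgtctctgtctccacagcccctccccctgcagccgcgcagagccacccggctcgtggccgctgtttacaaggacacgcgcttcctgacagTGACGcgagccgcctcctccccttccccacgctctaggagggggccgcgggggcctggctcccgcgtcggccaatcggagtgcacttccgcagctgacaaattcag
Nr4a1: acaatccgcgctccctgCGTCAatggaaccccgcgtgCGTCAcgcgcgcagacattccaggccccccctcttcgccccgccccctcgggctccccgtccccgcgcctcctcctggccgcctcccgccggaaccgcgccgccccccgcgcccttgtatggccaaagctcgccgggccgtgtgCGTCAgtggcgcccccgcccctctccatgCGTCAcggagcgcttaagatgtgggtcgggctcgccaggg
Egr2: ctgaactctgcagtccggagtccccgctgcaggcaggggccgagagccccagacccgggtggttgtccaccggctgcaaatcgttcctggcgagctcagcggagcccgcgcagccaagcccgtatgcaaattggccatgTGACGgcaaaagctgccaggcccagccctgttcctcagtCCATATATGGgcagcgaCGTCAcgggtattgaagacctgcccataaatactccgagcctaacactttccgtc
Egr4: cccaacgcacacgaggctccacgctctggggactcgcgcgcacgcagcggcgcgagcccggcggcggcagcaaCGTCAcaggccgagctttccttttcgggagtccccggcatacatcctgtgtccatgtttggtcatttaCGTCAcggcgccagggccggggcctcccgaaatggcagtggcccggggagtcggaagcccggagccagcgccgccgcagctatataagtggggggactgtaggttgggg
Jund: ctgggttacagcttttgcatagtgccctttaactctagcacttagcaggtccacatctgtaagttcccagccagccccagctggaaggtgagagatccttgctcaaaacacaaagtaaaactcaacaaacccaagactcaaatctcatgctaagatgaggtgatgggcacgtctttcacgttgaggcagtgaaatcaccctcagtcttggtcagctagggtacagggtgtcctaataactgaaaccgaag

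The core of the cAMP response element occurred in 6 of the 7 windows, counted on both strands: 4 times in Nr4a1, 2 times each in Fos, Egr2 and Egr4, and 1 time each in Junb and Fosb. The Jund window held none. Of 32817 promoter windows of the same length, 17.7% held the core, 1.47% a CArG box and 12.4% TATAAA. The window of Dusp1, the gene outside the 10 that was most like Fos, held the core 3 times, 2 of them being the 2 strands of a full palindrome TGACGTCA, which was present in 1.55% of windows. The core was found both in covarying genes and in Egr4 and Fosb, which stood outside the pattern.

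The covarying genes, and some members outside the pattern, lay high among bright probe sets in their spread between mice. The SD of log2 signal within subgroups was 1.07 for Arc, at the 98.7th percentile of the brighter 50% of all probe sets, and 0.88 for Fos, at the 95.6th percentile. It was 0.77 for Egr2 (brighter probe set, 92.4th percentile), 0.65 for Nr4a1 (87.9th), 0.49 for Junb (77.6th) and 0.47 for Egr1 (76.0th). Outside the pattern, Fosb (percentile 93.1), the dimmer Egr3 probe set (89.8) and Egr4 (86.6) lay above Junb and Egr1. The brighter probe sets of Jund and Egr3 were steady, with SDs of 0.29 each, at the 40.4th and 42.6th percentiles. Over all probe sets, dim ones included, the covarying genes lay lower, from percentile 38.7 for Egr1 to 72.1 for Arc. Whether handled mice were more spread out than non-handled mice was tested with limma on absolute deviations. None of the 13 probe sets passed and none of 45037 did (0.00%), and 2450 probe sets had an unadjusted p under 0.05. The largest member difference was 0.47 log2 units for the brighter Egr2 probe set (unadjusted p = 0.0301, adjusted p = 0.835), with handled mice the more spread.

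The second question was whether handling in early life shifted these genes in the adult. With extraction as a term, 3 of 13 probe sets were lower in handled mice at an adjusted p under 0.05 and none was higher, where 7.93% of all 45037 probe sets were called lower and 3.58% higher. The 3 were Egr4, the brightest probe set of Jund, and the dimmer probe set of Egr3. Among all calls 31.1% were higher, and this share was 45.3% after quantile normalization and 48.3% with arrays scaled to equal mean and variance. The median handled minus non-handled difference was -0.19 log2 units over the 13 probe sets and -0.15 over all probe sets, which became 0.02 and 0.03 with these scalings. The 6 covarying genes were not among the calls. The distribution of signal over the whole array also differed between the groups: the variance of its natural log ran from 3.82 to 4.24 in handled column mice, against 2.88 to 3.76 in non-handled column mice, without overlap, and from 3.19 to 3.71 in handled Trizol mice, against 2.85 to 3.18 in non-handled Trizol mice, also without overlap. Median signal averaged 88.1 in handled column mice and 112 in non-handled column mice. Both scalings equalize this variance. Egr4 and the brighter Jund probe set passed under each, and the dimmer Egr3 probe set passed under neither (adjusted p = 0.0573 and 0.0564). Whether the array-wide difference had a part in the calls was not tested.

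Egr4, a zinc finger factor of the Egr family, was lower in handled mice. In handled column mice its signal ran from 38.9 through a median of 83.8 to 244, against 121 through 259.5 to 400.0 in non-handled column mice. In handled Trizol mice it was 46.6, 83.1, 98.3 and 113.4, against 127, 206, 226 and 242 in non-handled Trizol mice. Groups did not overlap in Trizol mice, and in column mice H108 and H117 lay within the non-handled range. The difference was -1.35 log2 units (SE 0.24, 0.392-fold, adjusted p = 0.000351), and reassigning handling among mice of the same extraction gave p = 3.23e-05 (exact permutation test, two-sided). Of the 11 handled mice, 10 were below the median of the non-handled mice. Removing any 1 mouse left the difference between -1.50 and -1.21. Egr4 was not a bright probe set, at the 59.8th percentile of mean signal. Its median of 83.8 in handled column mice was below the median signal of those arrays, which averaged 88.1.

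Jund, the AP-1 subunit with steady expression, was lower in handled than in non-handled mice at its brighter probe set. Its signal in handled column mice was 1553 at the lowest, 2207 at the median and 2821 at the highest, against 3424, 3998 and 7065 in non-handled column mice, with no overlap, where 1.13% of all probe sets were lower in handled column mice without overlap. In handled Trizol mice it was 1202, 1312, 1426 and 1526, against 1416, 1517, 1597 and 1612 in non-handled Trizol mice, and these overlapped. Within column mice the difference was -0.998 log2 units (SE 0.14), and within Trizol mice it was -0.17 (SE 0.135, limma adjusted p = 0.838). The difference over all mice was -0.73 log2 units (SE 0.12, 0.604-fold, adjusted p = 0.000263, exact permutation p = 3.67e-06). The highest value, 7065, came from NH162, which also had the highest 3' to 5' ratio of Actb (2.24 in natural log) and the highest mean signal, and without that mouse the difference was -0.67 (adjusted p = 0.000192). Between mice, Jund followed the Actb ratio (r = 0.618), mean signal (r = 0.650) and the summed astrocyte markers (r = 0.663) after subgroup means were taken out. NH162 was included in these correlations, and the next highest Actb ratio of any mouse was 1.47. The correlations were not computed without NH162, so how far they rest on it was not tested. With the 3' to 5' ratios of Gapdh and Actb as covariates, the handling difference was -0.64 (adjusted p = 0.000920).

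The dimmer probe set of Jund gave -0.31 log2 units (SE 0.33, adjusted p = 0.576). It correlated with the brighter one at r = 0.311 between mice.

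The 2 probe sets of Egr3, a zinc finger factor of the Egr family, gave differences of opposite sign over all mice. The dimmer one had signals of 44.3 at the lowest, 113.3 at the median and 220 at the highest in handled column mice, against 114, 261.5 and 355 in non-handled column mice. In handled Trizol mice it was 77.4, 95, 161 and 186, against 90.6, 254, 296 and 341 in non-handled Trizol mice. All 11 handled mice were below the non-handled median, though the groups overlapped. The difference was -0.95 log2 units (SE 0.25, adjusted p = 0.0144, exact permutation p = 0.00288), and it did not pass after quantile normalization (adjusted p = 0.0573) or with scaled arrays (adjusted p = 0.0564).

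The brighter probe set of Egr3 was called higher in handled mice within column mice alone. It had 4589, 5080.2 and 5801 as lowest, median and highest signal in handled column mice, against 3198, 4180 and 5502 in non-handled column mice, and 1560.4, 2168, 2565 and 2823 in handled Trizol mice, against 1825, 2542, 3066 and 3632 in non-handled Trizol mice. All 7 handled column mice were above the non-handled median there, while 3 of 4 handled Trizol mice were below it. Over all mice the difference was 0.14 log2 units (SE 0.12, adjusted p = 0.451). The 2 probe sets of Egr3 had r = 0.152 between mice, and the dimmer one correlated negatively with each of the 6 covarying genes (r from -0.415 to -0.227). For comparison, the 2 probe sets of Egr2 had r = 0.698.

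**Figure D4:**
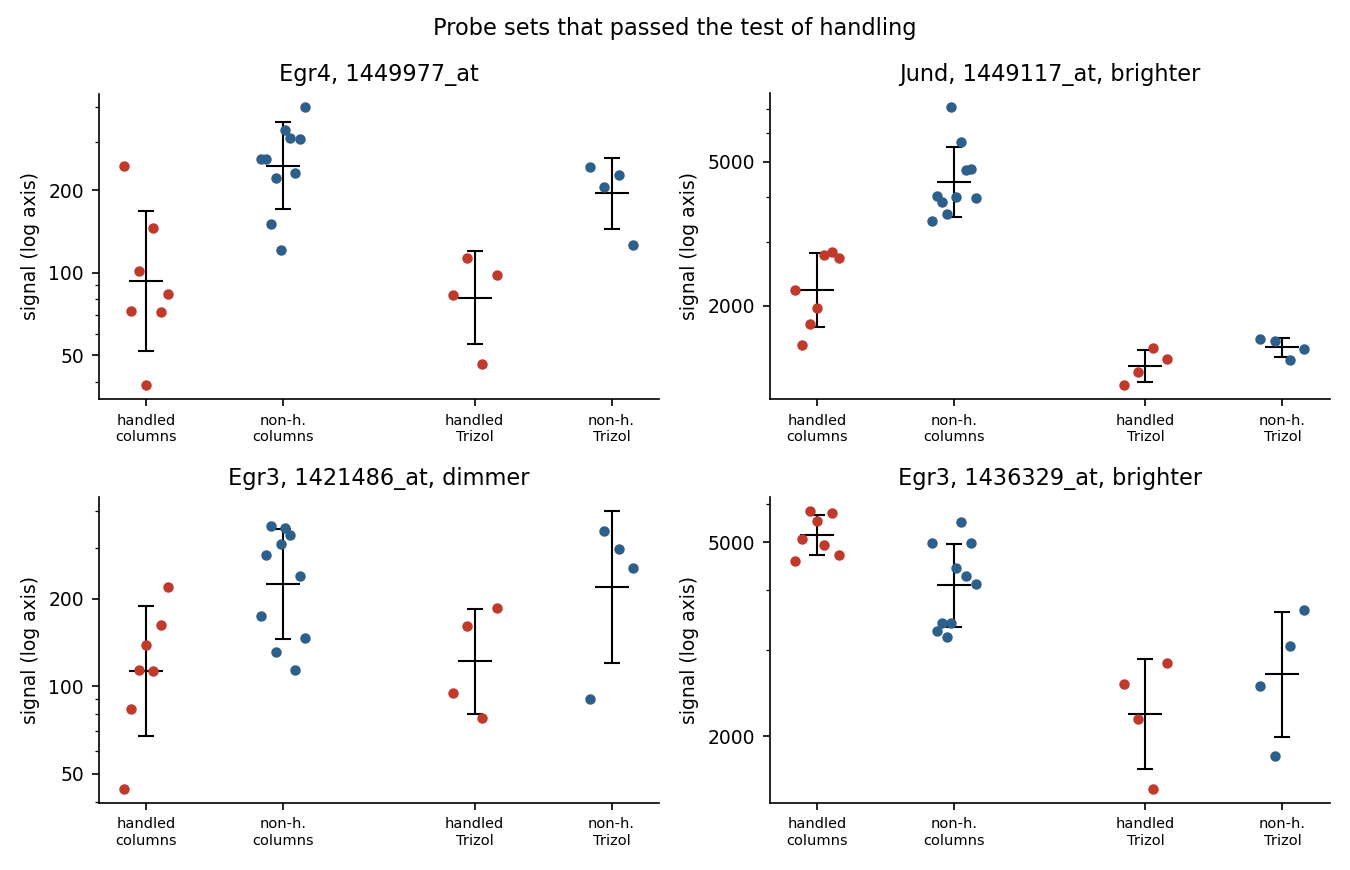
Signal on a log axis for the probe sets of Egr4, Jund and Egr3 that passed the test of handling over all mice or within column mice, 1 point per mouse, with mean and SD of log signal. Handled column mice lie below all non-handled column mice for Jund, and the 2 probe sets of Egr3 run in opposite directions in column mice.

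The other 8 probe sets did not pass. Fos was at -0.20 log2 units (SE 0.30, 95% interval -0.81 to 0.41), Fosb at -0.26 (interval -0.86 to 0.33) and Junb at -0.19 (interval -0.57 to 0.20). Egr1 was at -0.11 (interval -0.44 to 0.23), Nr4a1 at -0.14 (interval -0.59 to 0.32) and Arc at -0.12 (interval -0.85 to 0.61). Egr2 was at -0.13 and 0.19 with its 2 probe sets. Adjusted p-values of these probe sets were 0.556 or above. The intervals of Arc, Fos, Fosb and both Egr2 probe sets spanned more than 1 log2 unit from end to end.

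Because extraction split the mice into 2 sets, handling was also compared within each. Among column mice, 3 of 13 probe sets were called lower, where 7.65% of all probe sets were, and 1 was called higher, where 4.36% were. Among all calls 36.3% were higher, against 49.4% after quantile normalization and 51.8% with scaled arrays. They were Egr4 (-1.39 log2 units, SE 0.29, adjusted p = 0.00332), the brighter Jund probe set (-0.998, SE 0.14, adjusted p = 3.97e-05) and the dimmer Egr3 probe set (-0.99, SE 0.30, adjusted p = 0.0293) on the lower side, and the brighter Egr3 probe set (0.34, SE 0.11, adjusted p = 0.0403) on the higher side. The exact permutation p of Jund was 5.14e-05, the smallest that 19448 reassignments can give. Both Egr3 calls were lost in the same 4 alternative settings (quantile normalization, scaled arrays, no trended prior and RNA quality covariates), with adjusted p from 0.0607 to 0.0968 for the dimmer probe set and from 0.0720 to 0.327 for the brighter one. With single mice left out, the call was lost for 5 of the 17 mice at the dimmer probe set and for 11 of 17 at the brighter one. In column mice the median over the 13 probe sets was 0.07 and over all probe sets -0.17. Fos was at 0.09 (interval -0.668 to 0.848), Arc at 0.11 (interval -0.806 to 1.024) and Nr4a1 at 0.05 (interval -0.504 to 0.605). Egr1 was at 0.07 (interval -0.311 to 0.454) and Junb at -0.01 (interval -0.497 to 0.485). Egr2 was at 0.17 with its brighter probe set (interval -0.464 to 0.803) and at 0.60 with its dimmer one (interval -0.449 to 1.655). These intervals leave room for a difference in either direction.

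Among Trizol mice no probe set on the array passed (0 of 45037, 0.00%), while 2870 had an unadjusted p under 0.05, and 1 passed without a trended prior. Of the members, 2 of 13 were lower at an unadjusted p under 0.05, Egr4 and Fos, where 4.98% of all probe sets were. The handled minus non-handled difference was below 0 for all 13 member probe sets, with a median of -0.59 log2 units against -0.07 over all probe sets. These 13 differences are not independent, because the covarying genes move together and 1 low mouse lowers several of them. Egr4 (-1.26) and Junb (-0.56) lay lower in handled mice without overlap between groups, where 2.94% of all probe sets did, and for both the exact permutation p was 0.0286, the smallest that 4 against 4 mice allow. Junb signal was 99.8, 147.3, 153 and 158 in handled Trizol mice, against 169, 206, 210.3 and 227 in non-handled Trizol mice. Fos (-0.80, SE 0.34) had an unadjusted p of 0.0312, and Fosb (-1.02, SE 0.57) rested on H130, whose signal of 20.1 set it apart, with -0.26 when that mouse was left out. For Arc, leaving out H126 gave -0.07 in place of -0.59.

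Whether handling acted differently under the 2 extraction methods was tested as an interaction. None of the 13 probe sets passed, and 23 of 45037 did (0.0511%). The nearest members were the brighter Jund probe set (-0.83 log2 units, SE 0.23, unadjusted p = 0.000908, adjusted p = 0.276) and the brighter Egr3 probe set (0.61, SE 0.23, unadjusted p = 0.0119, adjusted p = 0.569). The differing signs of Fos, Arc and Nr4a1 in column and Trizol mice were therefore not separated from the spread between mice.

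**Figure D5:**
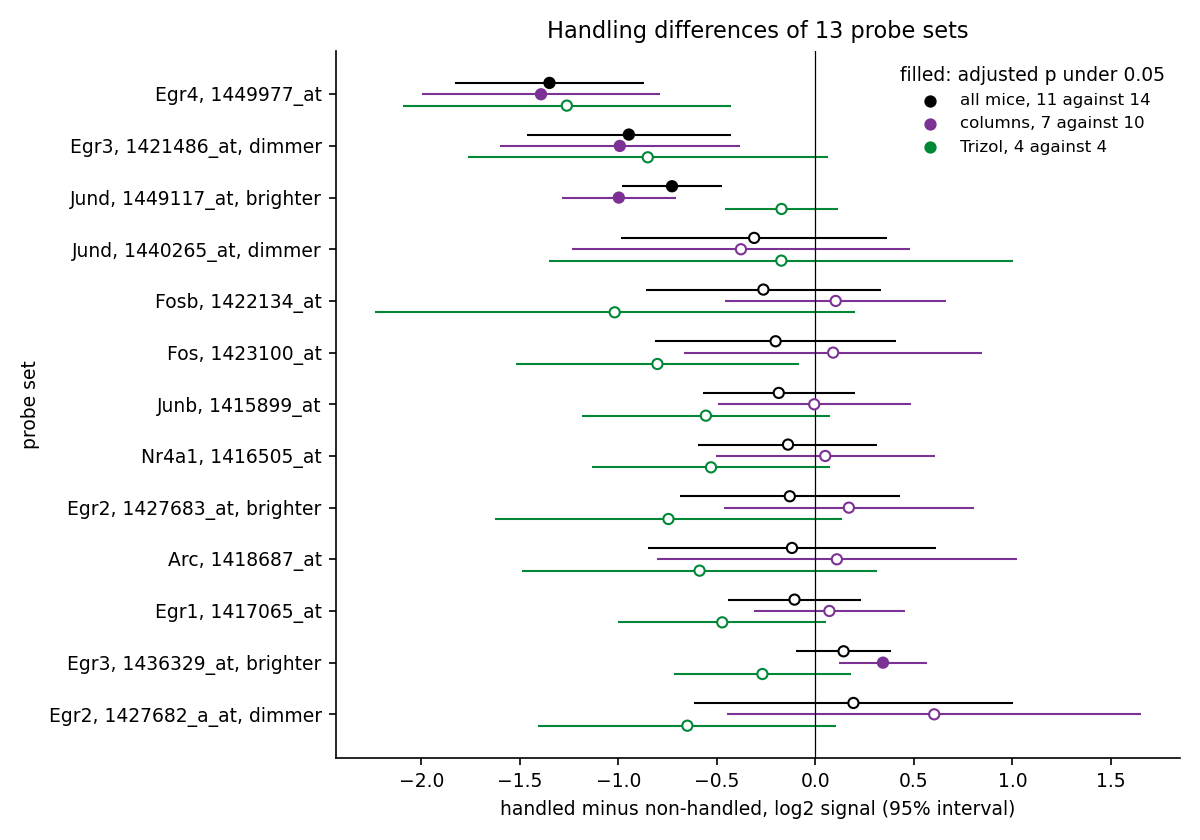
Handled minus non-handled difference in log2 signal with its 95% interval for the 13 probe sets, over all mice and within column and Trizol mice; filled points have an adjusted p under 0.05. Egr4 lies between -1.39 and -1.26 in all 3 comparisons, and in Trizol mice all 13 differences are below 0.

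The signal of 3 members differed with extraction. Column mice were higher than Trizol mice for the brighter Jund probe set (1.13 log2 units, SE 0.13, adjusted p = 1.07e-08), the brighter Egr3 probe set (0.90, SE 0.12, adjusted p = 3.23e-07) and Junb (0.71, SE 0.20, adjusted p = 0.00424). No member was lower. Over all probe sets 16.5% were called higher in column mice and 23.3% lower. Among all calls 41.4% were higher, against 57.1% after quantile normalization and 57.7% with scaled arrays. Junb did not pass with RNA quality as a covariate (0.44, adjusted p = 0.436). Egr4 (0.27, adjusted p = 0.434) did not pass, though it did after quantile normalization (0.70, adjusted p = 0.0261), and Fosb (0.56, adjusted p = 0.169) passed after quantile normalization (0.95, adjusted p = 0.0170) and with scaled arrays (0.86, adjusted p = 0.0353). Measured CA1 pyramidal markers were called higher in column mice in 4 of 4 cases, astrocyte markers in 6 of 6, oligodendrocyte markers in 5 of 5 and microglial markers in 5 of 6, while 2 of 6 dentate granule cell markers were called lower and none higher, with sums for CA1 of 15123 to 32482 in column mice and 12226 to 22608 in Trizol mice, and their part in these differences was not tested.

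Among other early induced genes and later effectors of neuronal activity, Rgs2, Ier3 and Cpeb4 were the genes called for handling. Of 34 measured genes that are also induced early, such as Npas4, Dusp1, Klf4 and Per1, 1 was higher and 1 lower in handled mice, where 3.58% of all probe sets were called higher and 7.93% lower. Rgs2, a brake on G protein signaling, was higher by 0.24 log2 units (SE 0.07, adjusted p = 0.0175), and Ier3, a stress-induced survival factor, was lower (-0.68, SE 0.17, adjusted p = 0.00921). Dusp1 (0.02), Errfi1 (0.14) and Klf10 (0.06), which followed the covarying genes between mice, gave adjusted p-values of 0.452 or above. Of 14 later effectors of neuronal activity, Cpeb4, a regulator of translation, was higher (0.40, SE 0.11, adjusted p = 0.0195) and none was lower, and Bdnf was at 0.04 (adjusted p = 0.858). None of these 3 calls held after quantile normalization or with scaled arrays.

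Among 24 measured upstream regulators, 2 were higher and 3 lower in handled mice, beside the same 3.58% and 7.93% of all probe sets, and with scaled arrays 1 was higher and 5 lower. Mef2a, an activity-dependent transcription factor, was at 0.28 (adjusted p = 0.0150) and Camk4, a kinase that phosphorylates CREB, at 0.28 (adjusted p = 0.0429). Crtc1, a coactivator of CREB, was at -0.37 (adjusted p = 0.0192), Hdac5, a deacetylase that represses MEF2 targets, at -0.30 (adjusted p = 0.0415), and Camk2a, a synaptic kinase, at -0.24 (adjusted p = 0.0494). Srf (-0.003) and Creb1 (0.10) did not pass. Of 14 partners and inhibitors of the member proteins, Fbxw7, part of a ubiquitin ligase that targets Jun proteins, was higher (0.25, adjusted p = 0.0292), a call lost after quantile normalization and with scaled arrays, and none was lower. The list medians were -0.015 for other early induced genes, 0.03 for later effectors, 0.003 for upstream regulators and 0.01 for partners and inhibitors, against -0.15 over all probe sets.

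Measures of RNA and tissue moved with some of these results, and their part in them was not tested beyond the fits given here. The Gapdh 3' to 5' ratio, as a natural log, averaged 1.03 ± 0.193 over 11 handled mice (SD) against 0.956 ± 0.177 over 14 non-handled mice (SD), while that of Actb averaged 1.23 ± 0.113 in the handled and 1.32 ± 0.291 in the non-handled mice (SD). The Gapdh ratio correlated with the 6 covarying genes at r = -0.609 to -0.321 within subgroups. With both 3' to 5' ratios as covariates, the 15 pairs kept r between 0.643 and 0.897. Pairs with genes outside the pattern moved. Jund rose from r = 0.064 to 0.461 with Nr4a1 and from 0.118 to 0.396 with Fos. Leaving out NH162 alone, the mouse with the highest Actb ratio, gave 0.265 and 0.250 without these covariates. Egr4 fell from 0.539 to 0.320 with Nr4a1, and Fosb from 0.251 to -0.068. Summed signal of 4 measured CA1 pyramidal markers ranged from 12226 through 24293 to 31194.0 in handled mice and from 13290 through 23315 to 32482 in non-handled mice, and none of them was called. Of 4 choroid plexus markers 2 were lower in handled mice, with a summed signal of 409.9 to 571 in handled mice and 479 to 3229 in non-handled mice. Of 6 interneuron markers Gad1 and Gad2 were higher and Pvalb lower, with sums of 13606 to 20228 in handled mice and 12061 to 17120.4 in non-handled mice. Of 6 markers of CA3 and CA2, Rgs14 was lower, with sums of 2116 to 2914 in handled mice and 2339 to 3817 in non-handled mice, and none of 6 dentate granule cell markers, 5 oligodendrocyte markers or 2 blood markers was called. Aqp4 of 6 astrocyte markers and P2ry12 of 6 microglial markers were higher, and Cldn5 of 6 endothelial and mural markers and Camk2a of 4 pan-neuronal markers were lower. No marker was at 0 in any mouse. Correlations of log2 signal between arrays ran from 0.806 to 0.919 over the 300 pairs.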

How the data were processed

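CA1 RNA of each mouse went onto 1 Affymetrix Mouse 430_2.0 array after double-round amplification. The authors deposited each probe set's intensity, the linear MAS 5.0 signal written by Affymetrix Expression Console, and all 25 columns were used. Signal was log2 transformed without further scaling or filter. Names came from the platform annotation (34958 probe sets with 1 gene, 932 with several, 9211 with none), and 34754 symbols were updated by gene identifier. After removal of 64 control probe sets, 45037 were tested two-sided in limma 3.58.1 (R 4.3.3) with a trended prior and terms for handling and extraction. Calls had an adjusted p under 0.05, corrected over all tested probe sets by the Benjamini-Hochberg method. Single values were also tested by exact permutation of handling within extraction, over 1361360 reassignments for all mice, and correlations by 100000 permutations within subgroups. The brighter of 2 probe sets stood for a gene in pairs and lists. The fit was tested on simulated data, in which changes of dim probe sets were rarely recovered.

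The genes named were all members, list genes called over all mice (at most 4 by p) and, for each member, up to 3 other genes in the upper 50% of signal with the highest correlation, and further names were chosen after their values were seen. Members, lists and tests were chosen with earlier results of these data known. Alternative settings were quantile normalization, scaling of arrays to equal mean and variance, 32 added before the log, the upper 50% of probe sets alone, no extraction term, array weights, no trended prior, 3' to 5' ratios of Gapdh and Actb as covariates (RNA quality), and each mouse left out. The number of arrays limits precision. Python 3.11.15, numpy 2.4.6, pandas 2.3.3, scipy 1.17.1 and matplotlib 3.10.9 served for permutations, motif search and figures. Promoter sequences came from RefSeq (GRCm38.p6). Behavioral measures were not analysed here.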

Additional observations from a re-analysis of the deposited data

Results flagged for a closer look

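Within the 4 subgroups of handling and extraction, 52 groups of values were examined for a mouse whose gap to the others took up most of the group's range, and 4 were found; chance marks about 1 in 20 groups. All 4 were the lowest mouse of a set of 4 Trizol mice. H126 had an Arc signal of 100.7 where the other handled Trizol mice had 399.5 to 452, and a Junb signal of 99.8 where they had 147.3 to 158. H126 was also the lowest of them for Fos, Nr4a1 and Egr1. H130 had a Fosb signal of 20.1, against 130.5 to 188 in the other handled Trizol mice, and also had the lowest Egr4 and Egr3 signals among them. NH146 had a signal of 36.2 at the dimmer Jund probe set, against 86.4 to 97.9 in the other non-handled Trizol mice. Each of these gaps spans at least 0.836 of the range of its 4 mice, where the limit is 0.829. With these mice left out 1 at a time, the Trizol difference was -0.07 for Arc without H126, -0.40 for Junb without H126 and -0.26 for Fosb without H130.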

How the results depend on the processing

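No paired analysis was possible because handled and non-handled mice share no mouse number. Egr4 and the brighter Jund probe set passed in the all-mice and column comparisons under every alternative run for each (no extraction term and array weights were run for all mice alone) and with every single mouse left out, Egr4 between -1.50 and -1.075 and Jund between -0.82 and -0.64 over all mice. Of the 3 probe sets called lower over all mice, only the dimmer Egr3 probe set lost its call, with the 2 scalings named beside it. The cause of the changes that follow was not tested.

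The 1 probe set called higher in column mice, the brighter Egr3 probe set, was no longer called (count 0) with quantile normalization, scaled arrays, no trended prior or RNA quality covariates, and the count was 0 to 1 with single mice left out. The dimmer Egr3 probe set in column mice was not called in the same 4 settings (adjusted p 0.0607 to 0.0968) or without H108, H109, NH156, NH163 or NH165. For extraction, 5 members were called higher after quantile normalization and 1 lower, the dimmer Egr2 probe set (-1.87, adjusted p 0.00767), with RNA quality covariates. After quantile normalization or scaling, 0 other early induced genes were called higher and 0 lower, 0 later effectors higher and 0 partners higher, and after scaling 1 upstream regulator was called higher and 5 lower. With RNA quality covariates 12 ordered pairs of members passed in place of 20.

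Uncalled differences near 0 changed sign. With RNA quality covariates Nr4a1 became 0.005, Arc 0.278 and the brighter Egr2 probe set 0.064 over all mice, and Junb 0.047 and Fosb -0.071 in column mice. The dimmer Jund probe set became 0.032 after quantile normalization and 0.007 after scaling over all mice, 0.028 in column mice and 0.040 in Trizol mice after quantile normalization, and 0.032 in Trizol mice after scaling. Junb in column mice became 0.089 after quantile normalization and 0.164 after scaling, and Egr1 -0.069 after scaling. With RNA quality covariates the column minus Trizol difference became -0.809 for Nr4a1, -0.033 for Egr1, -1.293 for Arc, 0.093 for the dimmer Egr3 probe set, -0.757 for the brighter Egr2 probe set, 0.063 for the dimmer Jund probe set and -0.485 for Egr4, and after quantile normalization and scaling it became 0.402 and 0.284 for the dimmer Egr3 probe set and 0.323 and 0.252 for the dimmer Jund probe set. In the interaction, the dimmer Egr3 probe set became 0.055 and 0.020 and Egr4 0.013 and 0.037 after quantile normalization and scaling. The difference in spread became -0.009 for Egr1 after scaling, -0.023 for Fosb after quantile normalization and with 32 added before the log, and -0.083 and -0.042 for the dimmer Egr2 probe set after quantile normalization and scaling.

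With single mice left out, differences over all mice ran from -0.342 to 0.056 for Arc, from -0.035 to 0.330 for the dimmer Egr2 probe set and from -0.318 to 0.018 for the brighter Egr2 probe set. In column mice they ran from -0.210 to 0.325 for Arc, -0.037 to 0.173 for Egr1, -0.090 to 0.399 for the brighter Egr2 probe set, -0.166 to 0.275 for Fos, -0.068 to 0.231 for Fosb, -0.183 to 0.102 for Junb and -0.108 to 0.183 for Nr4a1. In Trizol mice the dimmer Jund probe set ran from -0.512 to 0.162. Between extraction methods, ranges were -0.121 to 0.280 for Arc, -0.245 to 0.069 for the dimmer Egr3 probe set, -0.011 to 0.271 for Nr4a1 and 0.282 to 0.493 for Egr1, which was called without NH138. In the interaction they were -0.359 to 0.284 for the dimmer Egr3 probe set, -0.398 to 0.079 for Egr4 and -0.540 to 0.134 for the dimmer Jund probe set. With 4 mice a group, the Trizol comparison leaves intervals of more than 1 log2 unit for most members.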
